A study of Mus musculus with 6 samples.

Results

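Keratins and the other transcripts of the epidermal barrier were examined in whole lenses of newborn mice. A gene belonged to this set if its symbol is that of a keratin, a desmoglein, a desmocollin, desmoplakin, envoplakin, periplakin, loricrin, involucrin, filaggrin, dermokine, suprabasin or keratinocyte differentiation-associated protein, or of the small proline-rich or late cornified envelope families. Of 18193 genes measured, 87 met this rule, each represented by the probe set whose mean over the 6 arrays was highest. The rule uses symbols alone, but it was written with earlier results of these data known.

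The samples were lenses of transgenic and wild-type Balb/c mice aged 2 days, with 3 Affymetrix arrays for each genotype. The transgene, its promoter and the cells it is expressed in are not named in the labels. The design text counts 12 lenses per genotype and does not say how they were divided among replicates, so the p-values reflect differences among these samples alone, and that spread may be technical. Transgenic arrays are called T1, T2 and T3 after their replicate number, and wild-type arrays W1, W2 and W3. Values are log2 after quantile normalization, in which 1 unit is a 2-fold difference, and the 6 arrays limit their precision. A level of 1 gene cannot be set against that of another, because each probe set binds with its own strength. Against the labelled tissue, the lens markers Cryaa and Cryab were at 14.36 or more on every array and Mip at 13.23 or more, T3 included. Foxe3 and, in the opposite direction, Bfsp1, Prox1 and Birc7 differed between the genotypes, so the mean of the lens list does not show that its genes were alike.

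Keratins are intermediate filament proteins that assemble as pairs of a type I and a type II chain, and the pair in use changes as a keratinocyte moves from the basal layer to the surface. Desmosomes, built of cadherins and plakins, tie the keratin filaments of neighbouring cells together. In the outermost layers filaggrin, loricrin, involucrin and small proline-rich and late cornified envelope proteins build the cornified envelope, the dead shell that keeps water in. The lens is an epithelial organ that descends from the same surface ectoderm as the epidermis, but its fiber cells rest on vimentin and beaded filaments and form no cornified layer.

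Most of the variation in these genes lay in a single array. T3 exceeded the highest of the other 5 arrays by at least 1 log2 unit for 40 of the 87 genes, while 242 of all 18193 genes (1.33%) did so. No other array stood that far above the rest for any of the 87, and among all genes T2 did so for 2 and T1, W1, W2 and W3 for 0. The difference between T3 and the median of the other 5 had a median of 0.84 over the 87 genes and of -0.0064 over all genes. In the other arrays the corresponding median over the 87 ran from -0.098 in W1 to 0.042 in T1. T3 held the highest of the 6 values for 65 of the 87 genes and for 3183 of all 18193. This array was singled out from earlier results on the same data, so these counts are a description without a test.

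**Figure D1:**
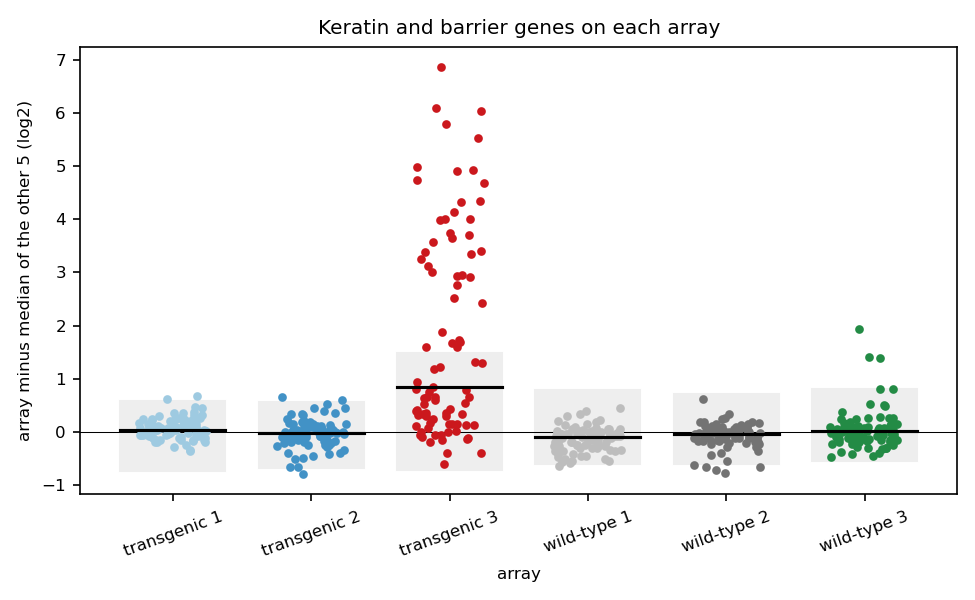
Each point is 1 of the 87 genes, plotted as its log2 value on an array minus the median of the other 5 arrays. The black bar is the median of the 87 and the grey box spans the 1st to the 99th percentile of all genes. Points of T3 reach 6.87 with a median of 0.84, and those of the other arrays stay near 0, apart from a few genes in W3.

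All 3 secreted peptides of the barrier were far higher in T3 than in the other arrays. Dmkn, encoding dermokine, was at 4.59, 4.19 and 11.10 in T1 to T3 and 4.23, 3.91 and 5.64 in W1 to W3. Krtdap, expressed as keratinocytes begin to differentiate, was at 4.74, 4.59 and 10.77 in T1 to T3 and 4.69, 4.73 and 5.24 in W1 to W3, and Sbsn, encoding suprabasin, was at 6.04, 5.59 and 10.58 in T1 to T3 and 5.49, 5.49 and 6.40 in W1 to W3. T3 lay 6.87, 6.04 and 4.99 above the median of the other 5 arrays in Dmkn, Krtdap and Sbsn. Within the wild-type group W3 was the highest array for each of the 3 genes, by 1.41 over W1 and W2 in Dmkn, 0.51 in Krtdap and 0.91 in Sbsn. The value for Sbsn holds for its brightest probe set only. In a second probe set of Sbsn W3 was at 5.77 against 5.67 in W1 and 5.74 in W2, and under T1. In the third W3 was also little above W2. The 3 genes follow one another, with no other protein-coding gene between them, in the RefSeq annotation of GRCm38.p6.

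Promoters of some genes that were high in T3, chosen by name, are shown: the 3 neighbouring peptide genes, loricrin and the keratin gene Krt10. They do not stand for all genes high in T3, of which 7 of the 27 with a promoter held TGANTCA. Each stretch runs from 130 bases before the annotated start to 20 bases from it on, 5′ to 3′ on the strand of the gene, from RefSeq (GRCm38.p6). For Dmkn the start listed first was taken. Capitals mark matches to TGANTCA, the core of sites bound by AP-1 factors, and to TATAAA, the core of the TATA box, searched on both strands.
Sbsn: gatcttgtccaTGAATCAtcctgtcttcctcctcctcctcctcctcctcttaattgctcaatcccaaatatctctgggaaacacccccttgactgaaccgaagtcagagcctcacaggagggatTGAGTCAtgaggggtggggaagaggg
Dmkn: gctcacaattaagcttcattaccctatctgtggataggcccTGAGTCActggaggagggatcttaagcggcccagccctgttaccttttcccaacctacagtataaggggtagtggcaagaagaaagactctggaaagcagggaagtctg
Krtdap: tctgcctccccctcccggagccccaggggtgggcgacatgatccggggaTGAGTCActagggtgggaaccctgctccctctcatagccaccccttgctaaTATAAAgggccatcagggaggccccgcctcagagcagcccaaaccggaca
Lor: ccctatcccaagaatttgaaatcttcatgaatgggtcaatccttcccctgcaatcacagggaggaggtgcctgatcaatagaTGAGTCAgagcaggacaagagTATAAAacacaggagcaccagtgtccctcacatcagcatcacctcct
Krt10: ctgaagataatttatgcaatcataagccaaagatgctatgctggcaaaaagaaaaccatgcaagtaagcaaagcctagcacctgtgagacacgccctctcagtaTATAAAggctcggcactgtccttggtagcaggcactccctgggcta
They lie at chr7:30751341-30751490 on the plus strand (Sbsn), chr7:30763626-30763775 on the plus strand (Dmkn), chr7:30787775-30787924 on the plus strand (Krtdap), chr3:92083123-92083272 on the minus strand (Lor) and chr11:99389345-99389494 on the minus strand (Krt10). Both motifs are present in Krtdap and Lor, TGANTCA alone in Sbsn and Dmkn, and TATAAA alone in Krt10. The TGANTCA matches begin 119 and 6 bases before the start in Sbsn, 89 in Dmkn, 81 in Krtdap and 48 in Lor. The TATAAA match begins 30 bases before the start in Krtdap, 27 in Lor and 26 in Krt10.

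Promoter sequences of 300 bases, 250 of them before the start, were matched for 61 of the 87 genes. TGANTCA occurred in 14 of these 61 (23.0%) and in 7.93% of all 27025 promoters. TATAAA occurred on either strand in 32 of the 61 (52.5%) and in 14.2% of all promoters. On the strand of the gene, between 45 and 16 bases before the start, it occurred in 25 of the 61 (41.0%) and in 2.36% of all promoters. The genes that were high in T3 and the other genes of the set each held both motifs: TGANTCA in 7 of 27 and 7 of 34, and TATAAA in 15 of 27 and 17 of 34. A match describes the letters in this window and is not evidence of binding.

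The keratins of the basal layer were high in T3 alone. Krt5, the type II keratin of basal keratinocytes, was at 6.31, 6.29 and 10.06 in T1 to T3 and 6.39, 6.34 and 6.37 in W1 to W3. Its partner Krt14 was at 4.71, 4.70 and 9.63 in T1 to T3 and 4.64, 4.73 and 5.07 in W1 to W3, and Krt15, a basal and hair bulge keratin, was at 5.45, 5.48 and 8.82 in T1 to T3 and 5.51, 5.21 and 5.74 in W1 to W3. The other 5 arrays of Krt5 lay within 6.29 to 6.39. Other probe sets of Krt14 put T3 5.36 and 0.56 above the median of the other 5.

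Of 4 suprabasal keratins, Krt1 and Krt10 were high in T3 and Krt2 and Krt77 were not. Krt1, the type II keratin that replaces Krt5 as cells leave the basal layer, was at 7.28, 6.48 and 13.13 in T1 to T3 and 7.03, 6.65 and 8.96 in W1 to W3. Krt10, its partner, was at 8.93, 8.65 and 13.55 in T1 to T3 and 8.86, 8.83 and 9.66 in W1 to W3. T3 was 6.10 and 4.69 above the median of the other 5 in Krt1 and Krt10, a ratio of 68.6 and of 25.8. W3 was second in both genes, at 1.68 over the highest of T1, T2, W1 and W2 in Krt1 and 0.73 in Krt10. T3 differed from the median of the other 5 by only 0.30 in Krt2, a keratin of the uppermost living layers, and by 0.31 in Krt77, a keratin of sweat gland ducts and epidermis. Krt2 was dim on every array, at 3.18 to 3.67.

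All 6 keratins of the outer root sheath and of activated keratinocytes were at least 1 unit higher in T3. Krt17 was at 4.26, 3.92 and 8.01 in T1 to T3 and 4.01, 4.01 and 4.05 in W1 to W3, and Krt6a, a keratin of the companion layer and of wound edges, was at 5.53, 5.27 and 8.91 in T1 to T3 and 5.17, 5.25 and 5.3 in W1 to W3. Krt6b was at 6.82, 6.16 and 8.90 in T1 to T3 and 5.85, 6.14 and 5.91 in W1 to W3, with T1 also 0.67 above the highest of T2 and the wild-type arrays. Krt16, which pairs with the Krt6 proteins, was at 4.39, 4.46 and 6.16 in T1 to T3 and 4.41, 4.43 and 4.68 in W1 to W3. Krt79, a keratin of the hair canal, was at 5.23, 5.09 and 8.86 in T1 to T3 and 5.49, 5.48 and 5.55 in W1 to W3, and Krt75, of the companion layer, was at 5.89, 5.83 and 7.43 in T1 to T3 and 5.60, 5.85 and 5.66 in W1 to W3. In each of these genes except Krt6b, the other 5 arrays lay within 0.46 of each other by the probe sets given. A second probe set of Krt6a had T1 to T3 at 5.81, 5.71 and 8.05 and W1 to W3 at 5.05, 4.93 and 4.92. By that probe set T1 and T2 were also above all wild-type arrays. In the third probe set of Krt6a, T2 lay at 4.36, under W1 at 4.38. Krt6a and Krt6b encode closely similar proteins, and how far their probe sets share signal was not tested. A second probe set of Krt17 put T3 -0.041 from the median of the other 5, and a probe set shared by Krt17 and Krt14 -0.012.

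Keratins of the inner root sheath, the sleeve that guides a growing hair, were high in T3 for 6 of 7 genes. Krt25 was at 4.56, 4.30 and 8.67 in T1 to T3 and 4.52, 4.85 and 4.27 in W1 to W3. Krt71, a type II partner in all its layers, was at 5.87, 5.71 and 8.95 in T1 to T3 and 5.87, 5.83 and 5.81 in W1 to W3, and Krt27 was at 5.58, 5.51 and 8.50 in T1 to T3 and 5.58, 5.77 and 5.43 in W1 to W3. In each of these the other arrays lay far under T3 and close to one another. Krt73 was at 5.87, 5.83 and 8.66 in T1 to T3 and 6.59, 6.14 and 6.16 in W1 to W3. Krt26 was at 4.55, 4.49 and 6.43 in T1 to T3 and 4.77, 4.33 and 4.74 in W1 to W3, and Krt28 was at 5.16, 4.67 and 6.74 in T1 to T3 and 5.27, 4.96 and 5.15 in W1 to W3. The exception, Krt72, was at 6.41, 6.41 and 6.72 in T1 to T3 and 6.25, 6.39 and 6.28 in W1 to W3. In none of the 7 genes did W3 exceed both W1 and W2, which it did in 41 of the 87 genes and in 34% of all genes.

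Hair shaft keratins, which fill the hair cortex and cuticle, differed from gene to gene: 4 of 12 were high in T3. Krt35, made early in the hair matrix, was at 4.60, 4.28 and 7.28 in T1 to T3 and 4.19, 4.44 and 4.12 in W1 to W3. Krt33a was at 3.71, 3.60 and 6.75 in T1 to T3 and 3.86, 3.95 and 3.81 in W1 to W3. Krt86 was at 3.90, 3.99 and 5.57 in T1 to T3 and 3.78, 3.88 and 3.99 in W1 to W3, and Krt31 was at 5.77, 5.72 and 7.03 in T1 to T3 and 5.41, 5.71 and 5.79 in W1 to W3. The other 8, Krt32, Krt33b, Krt34, Krt36 and Krt81 to Krt84, put T3 between -0.058 and 0.78 from the median of the other 5. In the run of neighbouring type I genes Krt33a, Krt33b, Krt34, Krt31, Krt32, Krt35 and Krt36, the T3 differences were 2.94, 0.66, 0.65, 1.31, 0.78, 3.00 and -0.058 in that order.

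**Figure D2:**
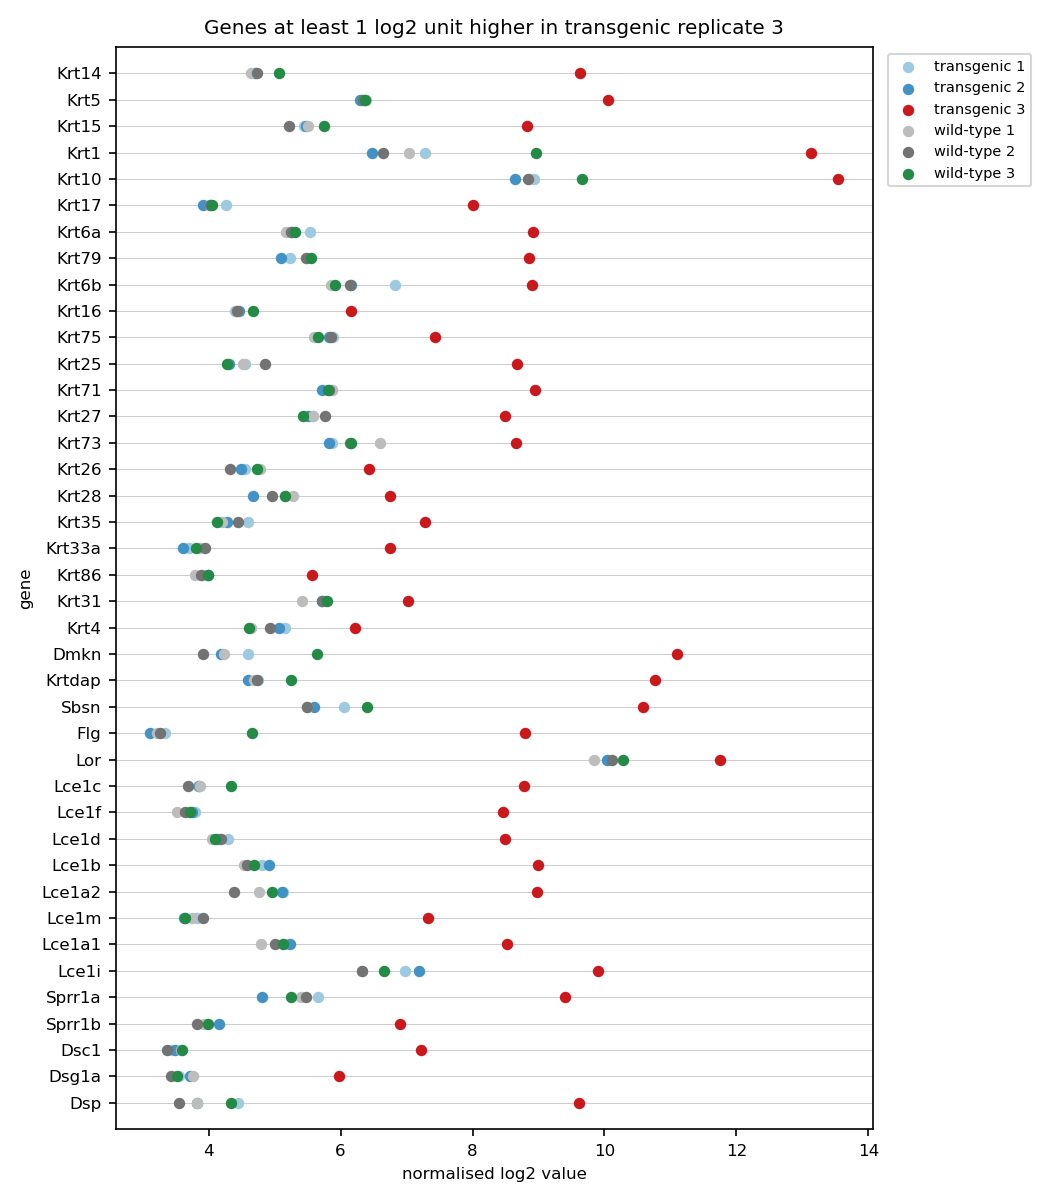
Points are normalised log2 values of the 40 genes for which T3 (red) was at least 1 unit above every other array, with 1 colour per array and genes ordered by role. The other 5 arrays lie close together for most genes, and W3 (green) stands apart from them in Krt1, Krt10, Dmkn and Flg.

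Cornified envelope genes were split within families. Flg, encoding filaggrin, which bundles keratin filaments, was at 3.33, 3.12 and 8.79 in T1 to T3 and 3.22, 3.26 and 4.65 in W1 to W3. T3 was 5.54 above the median of the other 5 and W3 1.32 above the highest of T1, T2, W1 and W2. Lor, encoding loricrin, the main envelope protein, was at 10.05, 10.03 and 11.75 in T1 to T3 and 9.85, 10.12 and 10.28 in W1 to W3 by its brightest probe set, and at 4.54, 4.08 and 11.48 in T1 to T3 and 4.86, 3.89 and 6.30 in W1 to W3 by another. T3 differed from the median of the other 5 by 1.70 in the brightest probe set of Lor, by 6.95 in that one and by 0.79 in the third. Ivl, encoding the scaffold protein involucrin, was at 5.33, 5.60 and 5.70 in T1 to T3 and 5.94, 5.59 and 5.68 in W1 to W3 by its brightest probe set, with T3 in the range of the other arrays, whereas its second probe set put T3 1.85 above their median.

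Of the late cornified envelope genes, which encode late-stage envelope precursors, 8 of 11 in the first group and 0 of 4 in the third group were at least 1 unit higher in T3. Lce1c was at 3.83, 3.85 and 8.78 in T1 to T3 and 3.86, 3.69 and 4.34 in W1 to W3. Lce1f was at 3.79, 3.75 and 8.46 in T1 to T3 and 3.52, 3.64 and 3.71 in W1 to W3, and Lce1d was at 4.29, 4.14 and 8.49 in T1 to T3 and 4.05, 4.19 and 4.10 in W1 to W3. These 3 genes were at 4.34 or less in every array but T3. Lce1b was at 4.81, 4.92 and 9.0 in T1 to T3 and 4.53, 4.57 and 4.68 in W1 to W3. Lce1a2 was at 5.12, 5.10 and 8.97 in T1 to T3 and 4.76, 4.38 and 4.96 in W1 to W3, and Lce1a1 was at 5.16, 5.24 and 8.52 in T1 to T3 and 4.79, 5.0 and 5.12 in W1 to W3. In these 3 genes T1 and T2 were also above all wild-type arrays, by 0.037 to 0.24. Lce1m was at 3.82, 3.62 and 7.32 in T1 to T3 and 3.74, 3.91 and 3.64 in W1 to W3, and Lce1i was at 6.98, 7.18 and 9.90 in T1 to T3 and 6.33, 6.32 and 6.66 in W1 to W3. Lce1h was at 6.94, 6.59 and 7.80 in T1 to T3 and 6.11, 6.55 and 6.59 in W1 to W3, with T3 0.86 above the next array. Lce1g and Lce1l, of the same group, differed from the median of the other 5 by 0.34 and 0.022, and Lce3a, Lce3b, Lce3c and Lce3f by 0.25, -0.056, -0.094 and 0.13. Lce1g and Lce1l were dim on every array, at 3.17 to 3.72 and 3.09 to 3.34. Whether their probe sets can register a rise was not tested.

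The small proline-rich genes, whose products are cross-linked into the envelope, showed the same kind of split. Sprr1a was at 5.65, 4.8 and 9.40 in T1 to T3 and 5.40, 5.47 and 5.24 in W1 to W3, and Sprr1b was at 3.93, 4.15 and 6.90 in T1 to T3 and 3.95, 3.82 and 3.99 in W1 to W3. Both were far higher in T3 than in any other array. The other 7 genes measured as single genes, Sprr2d, Sprr2f, Sprr2h, Sprr2i, Sprr2j-ps, Sprr2k and Sprr3, had T3 differences from -0.60 in Sprr2k to 0.80 in Sprr2h. Sprr3, a gene of oral and oesophageal lining, had its lowest value in T3, at 3.86 against 4.07 to 4.64. Probe sets shared by Sprr2a copies, left out because they carry several symbols, put T3 -0.039, 0.42 and 1.07 from the median of the other 5.

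Desmosomal genes were divided as well: desmoplakin and 2 of 6 cadherins were high in T3. Dsp, encoding desmoplakin, which anchors keratin filaments to every desmosome, was at 4.44, 3.82 and 9.62 in T1 to T3 and 3.81, 3.55 and 4.33 in W1 to W3, and its other 2 probe sets put T3 5.32 and 2.00 above the median of the other 5. Dsc1 and Dsg1a encode cadherins of the differentiated epidermis. Dsc1 was at 3.43, 3.49 and 7.22 in T1 to T3 and 3.58, 3.37 and 3.59 in W1 to W3, and Dsg1a was at 3.55, 3.71 and 5.97 in T1 to T3 and 3.76, 3.42 and 3.52 in W1 to W3. Dsg2 and Dsc2, which encode the cadherins of simple epithelia and heart, had T3 differences of -0.13 and 0.39. Dsg1b, dim on every array at 2.95 to 3.57, had one of 0.60. Dsc3, a cadherin gene of basal epidermis, differed by 0.14 by its brightest probe set and by 2.97 by another. Of 5 further probe sets of Dsg2, 1 put T3 1.00 above the highest of the other arrays, and the others differed from that array by -0.53 to 0.64. Over the whole set, 10 of 15 further probe sets of the 40 genes and 3 of 15 of the other genes had T3 at least 1 above the rest. The 5 further probe sets of the 40 genes that did not are 1 each of Krt14, Krt17, Krt4, Lce1f and Lor. Counting any probe set of a gene, 43 of the 87 genes had T3 at least 1 unit above the rest.

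Ppl, encoding periplakin, a linker of keratin to the cell border, showed no such excess. It was at 8.37, 8.16 and 8.30 in T1 to T3 and 7.65, 8.23 and 8.13 in W1 to W3. Evpl, encoding its partner envoplakin, was at 5.55, 5.50 and 6.21 in T1 to T3 and 5.46, 5.35 and 5.3 in W1 to W3, with T3 0.66 above the next array. Periplakin is also known from the membrane of lens fiber cells.

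Keratins of mucosa, cornea and simple epithelia did not reach the limit of 1 unit above the other arrays in T3, with 1 exception. Krt4, a keratin of stratified mucosa, was at 5.16, 5.06 and 6.22 in T1 to T3 and 4.63, 4.93 and 4.61 in W1 to W3. Its partner Krt13 differed in T3 by 0.12, and Krt12, the keratin that marks corneal epithelium, by 0.84. Another probe set of Krt12 put T3 0.66 above the median of the other 5, and T3 was the highest array in both. Krt78 was at 6.87, 6.77 and 7.18 in T1 to T3 and 6.47, 6.70 and 6.76 in W1 to W3, Krt76 was at 5.82, 5.59 and 5.41 in T1 to T3 and 5.70, 5.81 and 5.81 in W1 to W3, and Krt24 was at 5.71, 5.60 and 5.49 in T1 to T3 and 5.71, 5.69 and 5.65 in W1 to W3. The mucosal keratin gene Krt76 had its lowest value in T3. Krt18, the type I keratin of simple epithelia and of embryonic surface cells, was at 6.42, 6.95 and 6.45 in T1 to T3 and 6.91, 6.51 and 6.57 in W1 to W3, and the levels of the genotypes overlapped. Its partner Krt8 had T3 at 5.22 and the other arrays at 4.38 to 5.06. Krt19 was at 5.80, 5.50 and 7.02 in T1 to T3 and 6.08, 6.17 and 6.17 in W1 to W3, with T3 0.85 above the next array. Krt7 and Krt20 differed in T3 by 0.41 and -0.066.

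The threshold of 1 unit fell in a gradual slope. Just above it stood Krt4, at 1.06 over the next array, and Krt31, at 1.23. Just below stood Krt80, at 0.97, Lce1h, at 0.86, and Krt19, at 0.85. In all, 8 genes lay between 0.5 and 1.

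Among the 87 genes, 21 had no array 1 unit above the rest and a mean at or above the median of all probe sets (5.34) in the 5 arrays other than T3. That level is not a detection call. These genes include Ppl, Evpl, Ivl, Lce1h, Krt18, Krt19, Krt24, Krt72, Krt76 and Krt78. The remaining ones were as follows. Krt42 was at 8.24, 8.36 and 8.19 in T1 to T3 and 7.66, 8.03 and 7.88 in W1 to W3, Lce3b was at 8.01, 8.11 and 7.75 in T1 to T3 and 7.25, 7.69 and 7.80 in W1 to W3, and Lce3c was at 7.83, 7.92 and 7.78 in T1 to T3 and 7.46, 8.08 and 7.88 in W1 to W3. All 3 had W1 as their lowest array. Krt81 was at 6.26, 6.55 and 6.41 in T1 to T3 and 5.80, 5.89 and 5.85 in W1 to W3, Krt83 was at 6.26, 6.59 and 6.91 in T1 to T3 and 6.16, 6.29 and 6.16 in W1 to W3, and Krt33b was at 6.12, 6.01 and 6.56 in T1 to T3 and 5.75, 5.91 and 5.62 in W1 to W3. In Krt81 and Krt33b the genotypes did not overlap. Krt36 was at 5.84, 6.02 and 5.83 in T1 to T3 and 5.69, 5.95 and 5.89 in W1 to W3, Krt23 was at 5.33, 5.44 and 6.16 in T1 to T3 and 5.58, 5.52 and 5.53 in W1 to W3, and Krt88 was at 5.59, 5.66 and 5.94 in T1 to T3 and 5.35, 5.64 and 5.49 in W1 to W3. Krt23 and Krt88 had their highest value in T3. Sprr2k was at 6.09, 5.97 and 5.35 in T1 to T3 and 5.50, 5.95 and 5.85 in W1 to W3, with T3 lowest, and Dsc2 was at 5.52, 5.38 and 5.77 in T1 to T3 and 5.33, 5.35 and 5.54 in W1 to W3. A further 26 genes stayed between 2.95 and 6.49 on every array, had a mean below 5.34 in those 5 arrays, and showed no such excess.

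**Figure D3:**
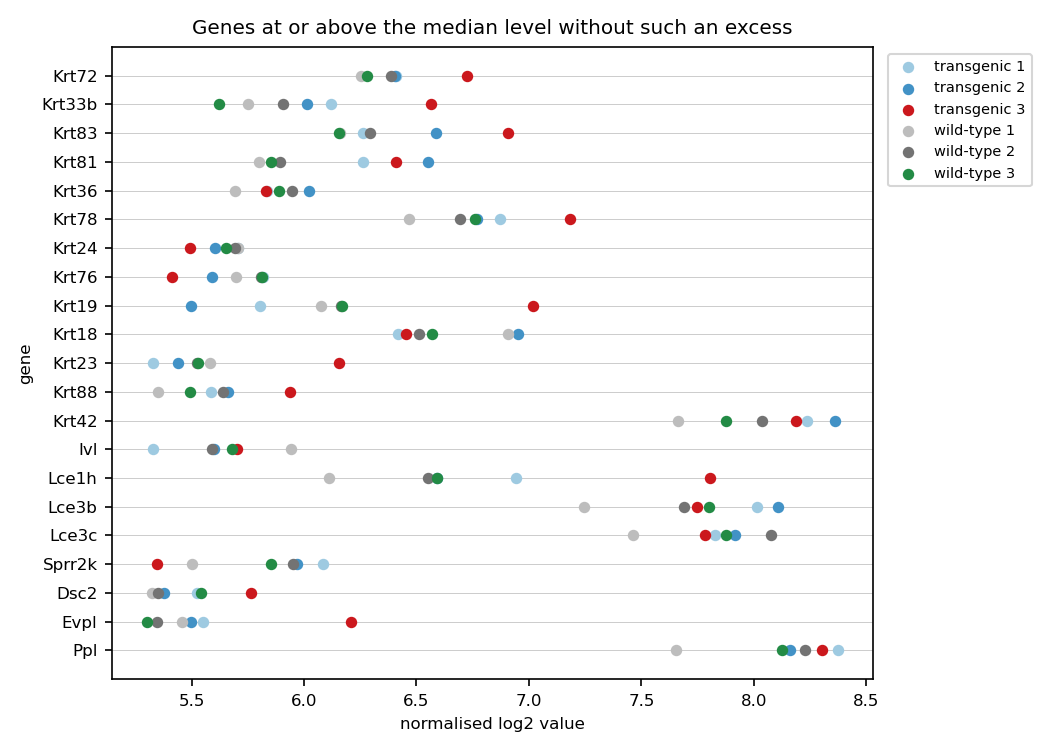
Points are normalised log2 values of the 21 genes at or above the median of all probe sets in the 5 arrays other than T3, without an excess of 1 unit in any array, with 1 colour per array. T3 (red) is highest for genes such as Krt19, Evpl and Lce1h, and within or below the range of the others for Krt42, Ppl, Krt18, Krt76 and Sprr2k.

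W3 held a smaller excess in a few of the same genes. With T3 set aside, W3 was at least 0.5 above the highest of T1, T2, W1 and W2 for 5 of the 87 genes, Krt1, Flg, Dmkn, Krt10 and Krtdap, against 20 of all genes (0.11%). T1 stood out in this way in 1 of the 87, Krt6b, and T2, W1 and W2 in 0 of them. Lor by its second probe set, at 6.30 in W3 against at most 4.86 in those 4 arrays, also had this order. In the brightest probe set of Lor W3 was 0.17 above the highest of those 4. In the third it lay under T1, T2 and W1, at 4.49 against 4.63 to 4.78. The 5 genes and Lor encode proteins of the differentiating layers of the epidermis, but other genes of those layers varied. W3 minus the highest of T1, T2, W1 and W2 was -0.41 in Sprr1a, -0.24 in Dsg1a, -0.19 in Lce1d and 0.0033 in Dsc1. It was 0.48 in Lce1c and, by the brightest probe set, 0.36 in Sbsn, whose second probe set had W3 under T1. Among basal keratins W3 differed from the higher of W1 and W2 by 0.35 in Krt14, 0.24 in Krt15 and -0.020 in Krt5. For the inner root sheath keratins this difference ran from -0.58 to -0.035. The limit of 0.5 was chosen after the values were seen, and the counts are a description.

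**Figure D4:**
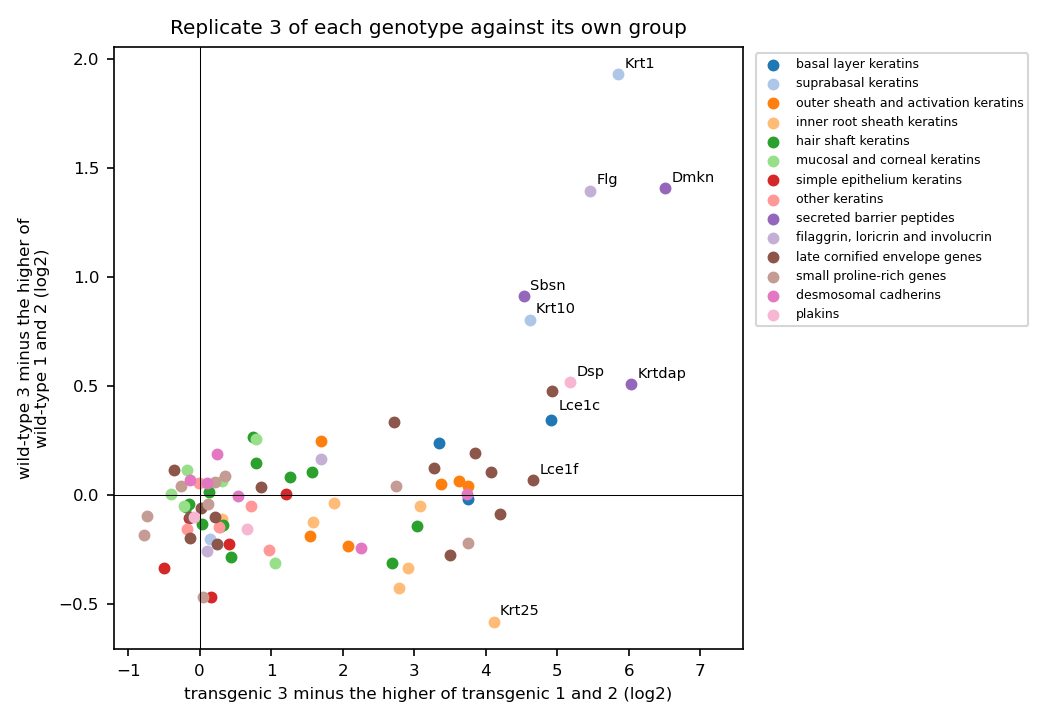
Each point is 1 of the 87 genes, coloured by role. The horizontal axis is T3 minus the higher of T1 and T2 and the vertical axis is W3 minus the higher of W1 and W2, both in log2 units, so the axes share no array. By their brightest probe sets, Krt1, Flg, Dmkn, Sbsn and Krt10 lie high on both, and Krt25 is 4.11 on the horizontal and -0.58 on the vertical axis.

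Other genes of skin were read from lists. Of 12 desmosomal plaque and linker genes, 3 had T3 at least 1 above all other arrays: Cdsn, encoding corneodesmosin, Perp and the plakophilin gene Pkp1, with T3 3.28, 2.84 and 2.56 above the median of the other 5. Of 19 measured genes of cornification enzymes and barrier lipids 8 did so, led by the filaggrin-processing protease gene Asprv1 (4.35), Klk7 (2.23), encoding a kallikrein that sheds surface cells, and Cnfn (2.13). Of 28 other epidermis markers 17 did so, led by Hrnr (5.16), Pof1b (4.56) and Lgals7 (4.08). Of 13 hair follicle markers 3 did so, Tchh (4.78), encoding trichohyalin of the inner root sheath, Krtap8-1 (3.03) and Padi3 (1.32). Of 14 cornea and conjunctiva markers only Lypd3 (2.77) did so, and Slurp1 (1.05) and Cldn4 (0.51) followed.

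Markers of dermis and muscle were also high in T3. Of 13 dermal fibroblast markers 9 had T3 at least 1 above all other arrays, with Lum at 4.73, Col1a2 at 4.55 and Dcn at 4.53 over the median of the other 5. Dcn was also at 8.22 in T2. The mean level of the list was 9.54 in T3 and 6.59 to 7.03 in the other arrays. Of 16 skeletal muscle markers 9 did so, with Acta1 at 5.65, Tnnc2 at 5.48 and Myh8 at 4.40, and a mean level of 7.32 in T3 against 5.09 to 5.48. In W3, 0 of the 13 dermal and 2 of the 16 muscle markers exceeded both W1 and W2 (all genes 34%), and its dermal mean level, 6.59, was the lowest of the 6. Fewer cells of a type and less RNA per cell cannot be told apart in bulk samples.

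For lists of eye tissues and of endothelium and blood, the mean level in T3 lay within the other 5 arrays. It was 12.25 against 12.24 to 12.39 for lens markers and 7.38 against 7.13 to 8.05 for neural retina. For pigment epithelium and melanocytes it was 7.22 against 6.74 to 7.78, and for endothelium and blood 6.14 against 5.90 to 6.41. In these lists 0 of 14, 0 of 16, 0 of 10 and 0 of 11 genes had T3 at least 1 above all other arrays. Only 1.33% of all genes met this limit, so counts of 0 in lists this short say little. Cryaa and Cryab, at the levels given above, could not have met this limit, because no deposited value exceeded 14.83. The largest T3 differences were 4.53 in Foxe3, which stood at 13.33, 13.42 and 13.39 in T1 to T3 and at 8.54 to 8.86 in wild-type lenses, 1.07 in Tyr and 0.42 in Csf1r, and -0.089 in Atoh7. Grifin (0.11) and Cryab (0.046) followed among lens markers, Dcx (-0.098) and Isl1 (-0.15) among retinal ones, Dct (0.85) and Pmel (0.44) among pigment cell ones and Tek (0.21) and Cd68 (0.15) in the last list. The pigment cell list was highest in T2, at a mean level of 7.78 against 6.74 to 7.22. The mean level of the 87 genes was 7.0 in T3 and 5.12 to 5.28 in the other arrays. The part of skin, dermis or muscle tissue in the T3 values was not tested.

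**Figure D5:**
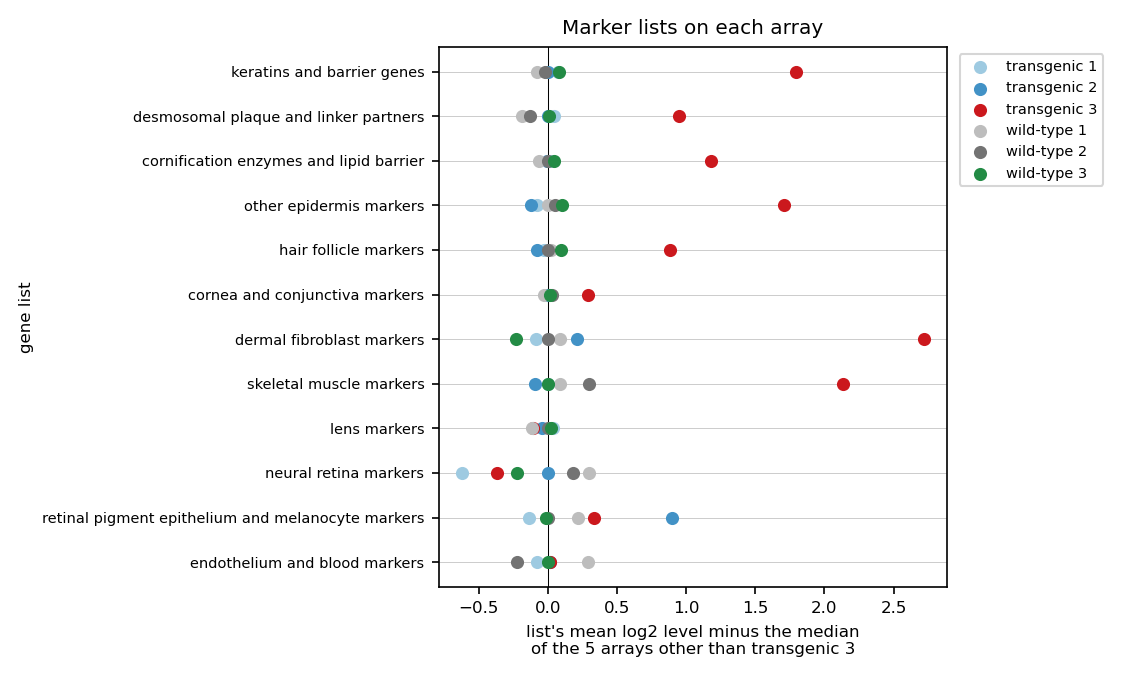
Points give the mean log2 level of each gene list on an array, minus the median of that mean over the 5 arrays other than T3. T3 (red) stands to the right for the keratin and barrier genes, epidermis, dermal fibroblast and muscle lists and near 0 for lens markers.

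The comparison of genotypes asks which of these genes differ between transgenic and wild-type lenses. With all 6 arrays, Krt81 rose and none fell among the 87 (limma, adjusted p under 0.05), while 1.93% of all genes rose and 2.61% fell. At an unadjusted p under 0.05 in limma, 14 of the 87 were higher and 1 lower, against 11.5% and 10.9% of all genes. Krt81, a type II hair keratin, was 6.41 ± 0.14 in transgenic and 5.85 ± 0.05 in wild-type lenses (SD, n = 3 arrays each), a difference of 0.56 ± 0.097 (SE, limma adjusted p = 0.0228). Its T3 value, 6.41, lay between T1 and T2. The call was lost without T2, W1, W2 or W3, with an adjusted p of 0.0576 to 0.0845 in limma, and held without T1 or T3.

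None of the 40 genes high in T3 passed, with limma adjusted p from 0.170 to 0.711, although their differences reached 2.06 in Dsp and 2.03 in Dmkn. Within the transgenic group Dsp was 5.96 ± 3.19 and Dmkn 6.62 ± 3.88 (SD, n = 3 arrays), so T3 widened the spread as well as the mean. Over the 87 genes the median genotype difference was 0.47, against 0.011 over all genes, and 75 of the 87 differences were above 0. Without T3 the median was 0.053, against 0.011 over all genes, and 47 were above 0.

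Without T3, 2 genes were higher in transgenic lenses, Krt81 and Lce1i, and 0 were lower (limma), while 1.37% of all genes were higher and 1.79% lower. Without T3 13 of the 87 were higher and 5 lower at an unadjusted p under 0.05 in limma, against 10.9% and 9.77% of all genes. Krt81 differed by 0.56 ± 0.12 (SE, limma adjusted p = 0.0464) and Lce1i by 0.65 ± 0.14 (0.0490). Lce1i was at 6.98 and 7.18 in T1 and T2 and 6.32 to 6.66 in wild-type lenses. Its probe set is of a kind (_x_at) that may also bind related transcripts. Krt19 was lower in T1 and T2 than in the wild-type arrays, by -0.49 ± 0.12, and did not pass (limma adjusted p = 0.0709). With all arrays its difference was -0.032. Sprr3, at 0.40 without T3, did not pass either (0.0904). Outside the set, Perp, encoding a desmosomal protein needed for stratified epithelia, was 8.62 and 8.24 in T1 and T2 and 7.12 to 7.5 in wild-type lenses. It rose by 1.16 without T3 (limma adjusted p = 0.00906). With T3, which stood at 10.35, the difference was 1.80 and missed the threshold (limma adjusted p = 0.0785).

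The arrays of the genotypes did not overlap for 22 of the 87 genes. In 20 (23%) the transgenic arrays were higher, against 15.3% of all genes. In 2 (2.3%), Sprr2f and Sprr2i, they were lower, against 13.5% of all genes. Both counts depend on T3, which held the highest of the 6 values for 65 of the 87 genes. Those 65 could not be counted as lower. The 20 include 6 of the 11 first-group late cornified envelope genes, Lce1a1, Lce1a2, Lce1b, Lce1f, Lce1h and Lce1i, along with Krt4, Krt6b, Krt33b, Krt42, Krt72, Krt78, Krt80, Krt81 and Evpl. These counts use the brightest probe set of each gene. In a second probe set of Krt4, Krt42 and Lce1f the genotypes overlapped, and in that of Lce1a1 they did not. In the second one of Krt42, T1 and T2, at 5.92 and 5.97, lay under the wild-type arrays, at 6.19 to 6.55. Krt42, Lce1a1, Lce1h and Lce1i were read from _x_at probe sets, and how far the late cornified envelope genes share signal was not tested. In the lists of other genes, Epcam rose by 0.59 and Tek by 0.49, and Fabp5 changed by -1.24, Muc4 by -0.64, Elavl4 by -0.72 and Sncg by -0.84 (limma, adjusted p from 0.000703 to 0.0465). Among 14 lens markers Foxe3 rose by 4.64, and Bfsp1, Prox1 and Birc7 changed by -1.66, -1.04 and -1.61 (limma, adjusted p of at most 0.00797). No gene of the cornification, hair follicle, plaque, dermal, muscle or pigment cell lists passed with all arrays.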

How the data were processed

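The authors' deposited table holds 1 log2 value per probe set for each of 6 Affymetrix arrays. The log2 scale was read from the values, and the authors' summary and normalization methods were not given in the sources used. After 64 control probe sets were set aside, 45037 remained. Their upper quartiles differed by 0.120, above a limit of 0.1, so arrays were quantile normalised (limma 3.58.1, R 4.3.3). Names came from GEO's platform annotation, updated by gene identifier through RefSeq GRCm38.p6 (99.4% matched). Probe sets with several symbols (932) or none (9160) were left out.

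Genotypes were compared over 18193 genes with limma (lmFit, eBayes) and Benjamini-Hochberg adjustment at 0.05, after the method was tested on simulated data. T3 was compared with the other arrays without a test. Values are given on every array for genes that passed the test, had an array at least 1 above the rest, or reached the median of all probe sets in the 5 arrays other than T3. From the other lists, the 3 genes with the largest T3 difference and those past the test are named. The set and all lists were chosen with earlier results of these data known. No 2 arrays held identical values. Of the 87 probe sets, 15 carry a suffix (_s_at or _x_at) that marks possible binding to related transcripts.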

Additional observations from a re-analysis of the deposited data

How the results depend on the processing

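Krt81 was the 1 gene that rose in the main analysis, and its call depended on the settings. The count of genes that rose ran from 0 to 2 with 1 array left out. It was 0 without moderation of the variances and 0 with the replicate block. Same-numbered replicates correlated by -0.052, 0.084 and 0.028 in their deviations from the group means, so the numbers were not taken to pair the samples. The count of genes that fell was 0 in every setting run. The median genotype difference ran from 0.053 (without T3) to 0.59 with 1 array left out. The count of 40 genes high in T3 ran from 38 to 42 over the other normalizations, probe set rules and arrays left out, and was 48 with a limit of 0.5 and 32 with a limit of 2. Arrays other than T3 were left out of this count after the data were seen. The median T3 difference was 1.19 when dim probe sets were left out, which removes genes near background. Of 852 values of the 61 genes given in full, 0 called values changed sign, 37 uncalled ones did, 6 lost the call (all Krt81) and 1 gained it (Lce1i without T3). Dim probe sets near background limit how small a difference can be seen.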
